A study of Mus musculus with 2 samples.

Results

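Transit-amplifying thymic epithelial cells, called TA cells by the authors, are the dividing class of the mouse thymic medulla, and their transcriptome was measured here by droplet single-cell RNA sequencing with and without the nuclear receptors Hnf4α and Hnf4γ in the thymic epithelium. The cells were taken by the authors' own deposited class name, and 476 of 9185 annotated cells carried it, out of 18089 deposited barcodes. The tissue was the thymus of C57BL/6 mice, digested with collagenase and dispase and depleted of CD45+ blood cells, and medullary epithelial cells low in MHC class II (mTEClo) that stained for neither podoplanin nor the integrin CD104 were sorted. All 7 samples were tagged with antibodies that carry a sequence (hashing) and run together in a single encapsulation. The 4 Hnf4dTEC samples were Foxn1(cre/+) Hnf4a(fl/fl) Hnf4g(-/-), and the 3 Hnf4ctrl samples were Foxn1(cre/+) Hnf4a(fl/+) Hnf4g(+/-). Both genotypes thus carried the Cre recombinase at a copy of Foxn1, and the controls had lost a copy of each receptor gene. The labels do not say whether that copy of Foxn1 still works. Cre driven by Foxn1 acts in thymic epithelium, whereas the Hnf4g deletion was not restricted to a cell type. The labels do not say whether each tagged sample came from a separate animal, so p-values measure the spread between these samples.

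Medullary thymic epithelial cells display antigens of other tissues to developing T cells. In the adult medulla, immature cells that make the chemokine Ccl21a give rise to cells that express Aire, the factor that drives the display of tissue antigens, and these can go on to resemble gut, skin, muscle, tuft or ciliated cells (mimetic cells). Transit-amplifying cells are a dividing stage on this path that is known to express Aire-stage genes, and they are recognised by transcripts of DNA replication and mitosis. Hnf4a and Hnf4g encode nuclear receptors that drive gut and liver gene programs.

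The label markers are genes of division. Mki67 encodes the Ki-67 protein that coats mitotic chromosomes, Top2a the topoisomerase that untangles DNA, Cdk1 the kinase of mitotic entry, Ube2c a ubiquitin carrier of the anaphase-promoting complex and Birc5 the passenger protein survivin. The promoters of 3 of them are shown because the class is defined by genes that are high together, and because late cell cycle genes are known to share a short element (the cell cycle homology region, TTTGAA) and CCAAT boxes. Sequences are shown in lower case, and each window runs from 250 bases before to 50 bases after the annotated start (RefSeq, build GRCm38.p6), 5′ to 3′ on the gene's strand, with TTTGAA and CCAAT on either strand in capitals.
Mki67, chr7:135716330-135716629, minus strand: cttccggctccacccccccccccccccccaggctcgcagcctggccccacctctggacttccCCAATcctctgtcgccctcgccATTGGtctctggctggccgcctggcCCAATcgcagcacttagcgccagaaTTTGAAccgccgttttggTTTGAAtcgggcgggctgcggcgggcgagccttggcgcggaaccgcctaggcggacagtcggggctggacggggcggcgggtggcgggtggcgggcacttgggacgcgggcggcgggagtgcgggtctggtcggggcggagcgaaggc
Cdk1, chr10:69352863-69353162, minus strand: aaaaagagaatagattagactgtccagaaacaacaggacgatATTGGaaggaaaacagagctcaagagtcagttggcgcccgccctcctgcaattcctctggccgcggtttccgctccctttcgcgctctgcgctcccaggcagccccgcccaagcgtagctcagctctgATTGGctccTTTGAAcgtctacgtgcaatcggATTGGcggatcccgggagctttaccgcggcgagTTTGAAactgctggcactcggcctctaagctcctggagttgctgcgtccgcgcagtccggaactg
Ube2c, chr2:164769679-164769978, plus strand: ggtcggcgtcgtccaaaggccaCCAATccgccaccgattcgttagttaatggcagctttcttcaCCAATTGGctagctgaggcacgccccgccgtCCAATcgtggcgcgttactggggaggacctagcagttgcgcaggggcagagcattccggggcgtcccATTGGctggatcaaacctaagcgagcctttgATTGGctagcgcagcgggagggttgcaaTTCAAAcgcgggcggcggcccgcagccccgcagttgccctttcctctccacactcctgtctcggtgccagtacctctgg
In the Ube2c window, a CCAAT and a reversed CCAAT overlap, so that they read as a single run of capitals. The windows of Mki67, Top2a, Cdk1 and Ube2c held TTTGAA and CCAAT, and that of Birc5 held neither. TTTGAA was found in 20 of 26 promoters of the G2 and M phase list (76.9%), in 4 of 26 of the S phase list (15.4%) and in 17.9% of all 32851 promoters of the same length. The E2F letters TTTCCCGC or TTTGGCGC were found in 9 of the S phase promoters (34.6%), in 0 of the G2 and M phase promoters and in 1.56% of all promoters. CCAAT stood in 73.1% of both lists' promoters and in 37.4% of all. RefSeq promoters were matched by symbol for 26 of the 30 G2 and M phase genes and 23 of the 30 S phase genes, some of which have more than 1 start. The 3 motifs were searched on both strands, and a match is a description of letters, not a site.

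The label markers were found throughout the class, which describes it and does not test the label, since the clustering used them. Every TA cell had transcripts of at least 2 of the 5 label markers, and 308 cells had all 5, against 26 of the 8709 other annotated cells. TA cells were also the class with the most UMIs (unique molecular identifiers, each an RNA molecule counted) per cell, with a median of 25336 UMIs and 5453 genes, against 12718 UMIs and 4102 genes in the rest, while Ciliated cells came close in UMIs (23527) and had more genes (6130). To set this depth aside, every cell was thinned to 5000 UMIs, which left out 7 TA cells. Mki67 was then detected in 61.8% of TA cells, against 8.12% of Transitional, 4.39% of Aire-expressing and 2.95% of Immature cells. Top2a was detected in 66.7% of thinned TA cells, 16.5% of Transitional and 31.1% of Ciliated cells. Unthinned, the Mki67 shares were 89.3%, 26.2%, 10.4% and 4.80% in the same order. Tuft cells, a non-dividing class that should lack Mki67, had it in 0.258% of thinned cells and 0.874% of unthinned cells at a median of 12186 UMIs.

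A few cells in the class went against its name. At least 2 UMIs of Ptprc, the CD45 gene of blood cells, and fewer than 5 UMIs of Epcam, Krt8 and Krt18 per 10000 were found in 8 TA cells (1.68%), a rule chosen after these cells were seen. Thymocyte genes are here those of the thymocyte list other than Ptprc and Themis. In 6 of the 8 cells between 10 and 12 thymocyte genes were detected, such as Trbc2 of the T cell receptor, with 52 to 159 UMIs a cell. The other 2 had no transcripts of these thymocyte genes but 365 and 414 UMIs of Mpo, 195 and 689 of Elane and 125 and 1118 of Prtn3, granule enzymes of developing granulocytes. Of these cells, 7 were in Hnf4dTEC samples and 1 was in an Hnf4ctrl sample. Among the other 468 TA cells the epithelial transcripts had a median of 20.3 UMIs per 10000 and the thymocyte sum was at most 5 UMIs in any cell. Scrublet, a doublet caller, marked 0 of them and 8 other TA cells. Results that rest on these cells are given with and without them.

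The share of TA cells overlapped between genotypes, and the controls differed more from each other than the genotype means did. The shares of annotated cells were 4.72, 3.99, 4.17 and 6.85% in the Hnf4dTEC samples, against 2.37, 5.25 and 7.60% in the Hnf4ctrl samples. They rest on 78, 55, 62 and 94 TA cells in the Hnf4dTEC samples and on 19, 48 and 120 in the Hnf4ctrl samples. The lowest and the highest sample were both controls, and their 95% exact binomial intervals, which cover counting error only, were 1.43 to 3.68% and 6.34 to 9.02%. The mean was 4.93 ± 1.31% in Hnf4dTEC (SD, n = 4) and 5.07 ± 2.62% in Hnf4ctrl (SD, n = 3), with a two-sided exact permutation p of 0.971 over 35 splits, the smallest possible being 0.0286. edgeR's quasi-likelihood test on the cell numbers of all 15 classes gave a log2 fold change of -0.07 (SE 0.32) and an adjusted p of 0.977. The direction turned to a log2 fold change of 0.04 when Tuft cells, the most numerous class, were left out of the total, and to 0.36 without control sample 3.

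**Figure D1:**
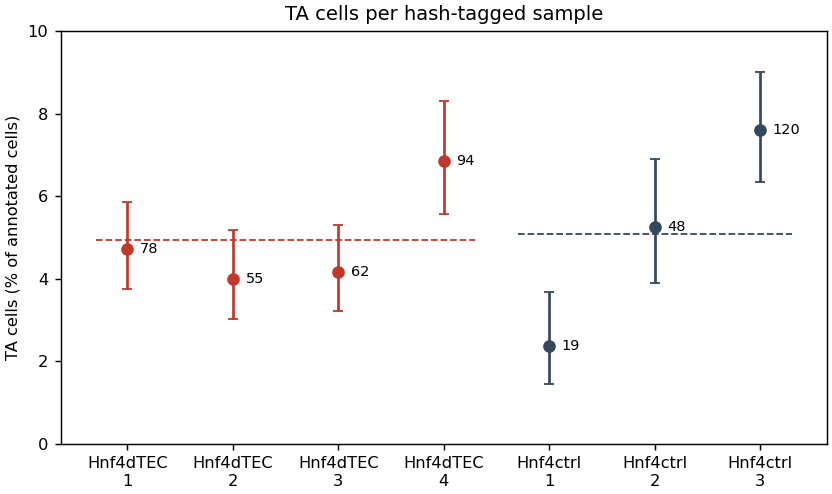
Share of TA cells among the annotated cells of each hash-tagged sample, in percent on the vertical axis, with the 4 Hnf4dTEC samples left of the 3 Hnf4ctrl samples. Points carry 95% exact binomial intervals and the number of TA cells, dashed lines are group means, and the Hnf4dTEC samples from 3.99 to 6.85% lie within the range of the Hnf4ctrl samples, 2.37 to 7.60%.

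RNA recovered per TA cell overlapped as well. The median TA cell held 24598, 25308, 24616 and 24849.5 UMIs in the Hnf4dTEC samples, against 21619, 26092 and 26614 in the Hnf4ctrl samples, with a two-sided exact permutation p of 0.971. The summed TA counts that all later values rest on ran from 1445636 to 2421639 UMIs in the Hnf4dTEC samples and from 439944 to 3400481 in the Hnf4ctrl samples. The first control sample, with 19 TA cells, was the shallowest, and the overlap in median UMIs rests on it. All Hnf4dTEC medians lay below those of the other controls. Without the first control sample the difference, Hnf4dTEC minus Hnf4ctrl, was -1510.2 UMIs.

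Set against all other annotated cells, TA cells stood out by genes of the chromosomes, the spindle and cytokinesis. Levels are given in CPM, the UMIs of a gene per 1000000 UMIs of the cells summed, first in TA cells and then in the rest, as means over the 7 samples. The highest ratio was that of Nusap1, a microtubule bundling protein of the spindle, at 309.5 ± 46.1 CPM in TA cells and 2.68 ± 1.03 CPM in the rest (SD, n = 7). It was followed by H1f5, a linker histone of dividing cells, by Hmmr, a spindle assembly factor, and by Mki67. Mki67 had 256, 266, 283, 213, 350.0, 302 and 284 CPM in TA cells of the 4 Hnf4dTEC and 3 Hnf4ctrl samples, against 1.65 to 6.87 CPM in the rest of the same samples. The other label markers showed the same gap: Top2a (616 against 19.9 CPM), Cdk1 (288 against 12 CPM), Ube2c (432 against 5.46 CPM) and Birc5 (245 against 3.69 CPM). Because the class was drawn by clustering on these same transcripts, the differences describe it and are not tested. The 20 genes with the highest ratios among those of at least 50 CPM in TA cells also included Ccna2 (cyclin A2, 117 CPM), Pclaf (the PCNA clamp associated factor, 460.2 CPM), Plk1 (polo-like kinase, 72.4 CPM), Aurkb (the passenger complex kinase, 57.0 CPM) and Sgo1 (shugoshin, the guardian of centromere cohesion, 64.4 CPM). The remainder were Pbk, Hist1h2ap, Cenpf, H2ac8, Cdca8, Tpx2, Aspm and Bub1.

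Read by role, the excess was larger for mitotic genes than for genes of DNA replication. With a mean of at least 5 CPM over TA and the rest, 162 of 167 cell cycle genes were compared, and 134 were at least 2-fold higher in TA cells at the median and higher in each of the 7 samples, a rule met by 9.04% of all 12390 genes. All 25 members of the kinetochore and spindle list and all 10 of the cytokinesis list met it, with median log2 ratios of 4.05 and 3.86. The mitotic entry list, with Cdk1 and the checkpoint genes Bub3 and Mad2l1 among its most abundant members, had 18 of 20 (median log2 ratio 3.55). The chromosome structure and passenger complex list had 17 of 18 (median 3.12), and its most abundant member Hmgb2, a chromatin protein of dividing cells, had 3596 against 222 CPM. Of the G1 cyclins and E2F factors 15 of 20 met it (median 1.82), and Ccnd2, cyclin D2, had 821 against 169 CPM. Replication fork and nucleotide synthesis genes had 24 of 30 and a lower median of 1.76, with Dut, which clears dUTP, at 449 against 50.1 CPM and Tyms, thymidylate synthase, at 137 against 8.68 CPM. Licensing and helicase genes had 13 of 17 and a median of 1.98, led by Gmnn (geminin, the inhibitor of relicensing) at 107 against 22.3 CPM. Of the anaphase-promoting complex list 4 of 13 met the rule, and core subunits such as Anapc11 (155 against 96.8 CPM) and Anapc5 (113 against 58.3 CPM) lay closer to the rest.

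Several brakes of the cycle were lower in TA cells than in the pooled rest, while the list as a whole was near its level in Transitional and Aire-expressing cells. Cdkn1a, which encodes the inhibitor p21, averaged 34.4 ± 16.6 CPM in TA cells and 331 ± 32.2 CPM in the rest (SD, n = 7), and it was found in 9.38% of thinned TA cells against 9.95% of thinned Transitional and 65.8% of thinned Tuft cells. Btg2, an antiproliferative gene, had 41.8 against 243 CPM, and Rb1, the retinoblastoma pocket protein, had 64.6 against 174 CPM. Of the list of CDK inhibitors and pocket proteins, 8 of 16 were at least 2-fold lower at the median and lower in every sample, against 27.2% of all genes. Not all brakes were low, as Trp53 (p53) had 198 against 67.0 CPM and Cdkn1b (p27) 61.2 against 68.2 CPM. The summed list had 875 ± 75.4 CPM in TA, 930.2 ± 77.7 CPM in Transitional, 999.7 ± 107 CPM in Aire-expressing and 1930.0 ± 102 CPM in Tuft cells (SD, n = 7). Against Transitional cells, 7 of its 17 genes were higher and 0 lower in TA cells in every sample. For counts against a single class, here and below, the share of all genes is not given, so they describe the list members only.

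The genes lowest in TA cells against the rest included products of tuft, gut and skin mimetic cells. Dapl1 had 5.71 against 587 CPM, the kallikrein Klk1 2.38 against 308 CPM and Gnat3, gustducin of tuft and taste cells, 18.7 against 1021 CPM. The others among the 10 lowest were Stxbp5l, Gm94, Tff1, Lgals7, Prss2, Rptn and Spink5, which include a trefoil peptide of mucous cells, a trypsinogen and genes of cornified skin. Of the lineage factors of mimetic cells, 12 of 14 measured above the minimum were at least 2-fold lower and lower in every sample, against 27.2% of all 12390 genes. Among these factors was Pou2f3, the tuft cell factor (15.2 against 200.4 CPM). Summed, this list had 491 ± 67.3 CPM in TA, 389 ± 16.0 CPM in Transitional, 537 ± 22.9 CPM in Aire-expressing and 219 ± 31.8 CPM in Immature cells, so its summed level was not lowest in TA cells. Insm1, a zinc finger factor of neuroendocrine cells, was the member on the other side of the rule, at 305 ± 68.1 CPM in TA cells and 76.9 ± 16.2 CPM in the rest. Insm1 made up most of the TA sum, so the sum does not show where the other members stood. Of the dissociation stress list, 12 of 15 genes were lower by the same rule, against the same 27.2% of all genes, with Jun at 82.6 against 349 CPM. Transitional and Aire-expressing cells were near TA cells in this list too, with sums of 1838 ± 169.7 CPM in TA, 2049.6 ± 296 CPM in Transitional, 2084 ± 317 CPM in Aire-expressing and 6005 ± 759 CPM in Tuft cells, the most numerous class of the rest.

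Among the other classes, Transitional cells were nearest to TA cells. Across 7896 genes with a mean of at least 20 CPM over the classes, Spearman's rho between class means was 0.947 with Transitional and 0.848 with Aire-expressing cells. Next came Muscle (0.720), Aire-adjacent (0.683) and Immature cells (0.675). Ionocyte cells, a class of 28 cells with at least 10 in only 1 sample, were the least alike (0.453). Without the cell cycle genes the values from Transitional to Immature cells were, in the same order, 0.951, 0.855, 0.727, 0.693 and 0.683. These correlations run over genes of 1 encapsulation, whose classes share library and background RNA, and they describe the ranking only.

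TA cells stood above Transitional cells in genes of mitosis, and much less in genes of the entry into DNA replication. The summed G2 and M phase list averaged 4662 ± 423 CPM in TA cells and 373 ± 68.9 CPM in Transitional cells (SD, n = 7), and 30 of its 30 genes were higher in TA cells in every sample. This count and those that follow have no share of all genes beside them. For the S phase list the sums were 1438 ± 187 CPM and 1191 ± 165 CPM, with 10 genes higher and 4 lower in TA cells in every sample. The licensing and helicase list summed to 627 ± 76.5 CPM in TA and 555 ± 71.0 CPM in Transitional cells, with 2 of 19 genes higher and 3 lower in TA cells in every sample and a median log2 ratio of 0.09. Among its members that encode parts of the replicative helicase, Mcm2 had 14.8 ± 6.85 CPM in TA and 31.0 ± 8.88 CPM in Transitional cells, Mcm6 46.1 ± 12.7 and 64.1 ± 11.7 CPM, and Mcm7 89.6 ± 14.4 and 91.2 ± 18.02 CPM. Cdc6, which loads the helicase, had 6.42 ± 1.98 CPM in TA and 15.7 ± 8.60 CPM in Transitional cells. Mcm10, which helps to fire origins, was on the TA side, with 11.4 ± 3.16 CPM in TA and 5.60 ± 1.80 CPM in Transitional cells. The gap was wider for the replication fork and nucleotide synthesis list, which summed to 2117 ± 146 CPM in TA and 1454 ± 167 CPM in Transitional cells. Of its 31 genes, 15 were higher and 0 lower in TA cells in every sample, with a median log2 ratio of 0.43. Its member Rrm2, a subunit of ribonucleotide reductase, had 93.9 ± 11.3 CPM in TA and 23.8 ± 13.7 CPM in Transitional cells. Of the G1 cyclins and E2F factors, 9 of 21 were higher and 2 lower in TA cells in every sample, with a median log2 ratio of 0.33. Among the D cyclins Ccnd3 had 28.6 ± 7.67 CPM in TA and 24.0 ± 5.89 CPM in Transitional cells, while the other two were on the Transitional side, with Ccnd2 (cyclin D2) at 821 ± 141 CPM in TA and 1281 ± 80.4 CPM in Transitional cells, and Ccnd1 (cyclin D1) at 107 ± 15.8 and 190.1 ± 30.1 CPM. At least 3 of the label markers were found in 97.7% of TA cells, 21.3% of Transitional cells and 28.9% of Ciliated cells.

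**Figure D2:**
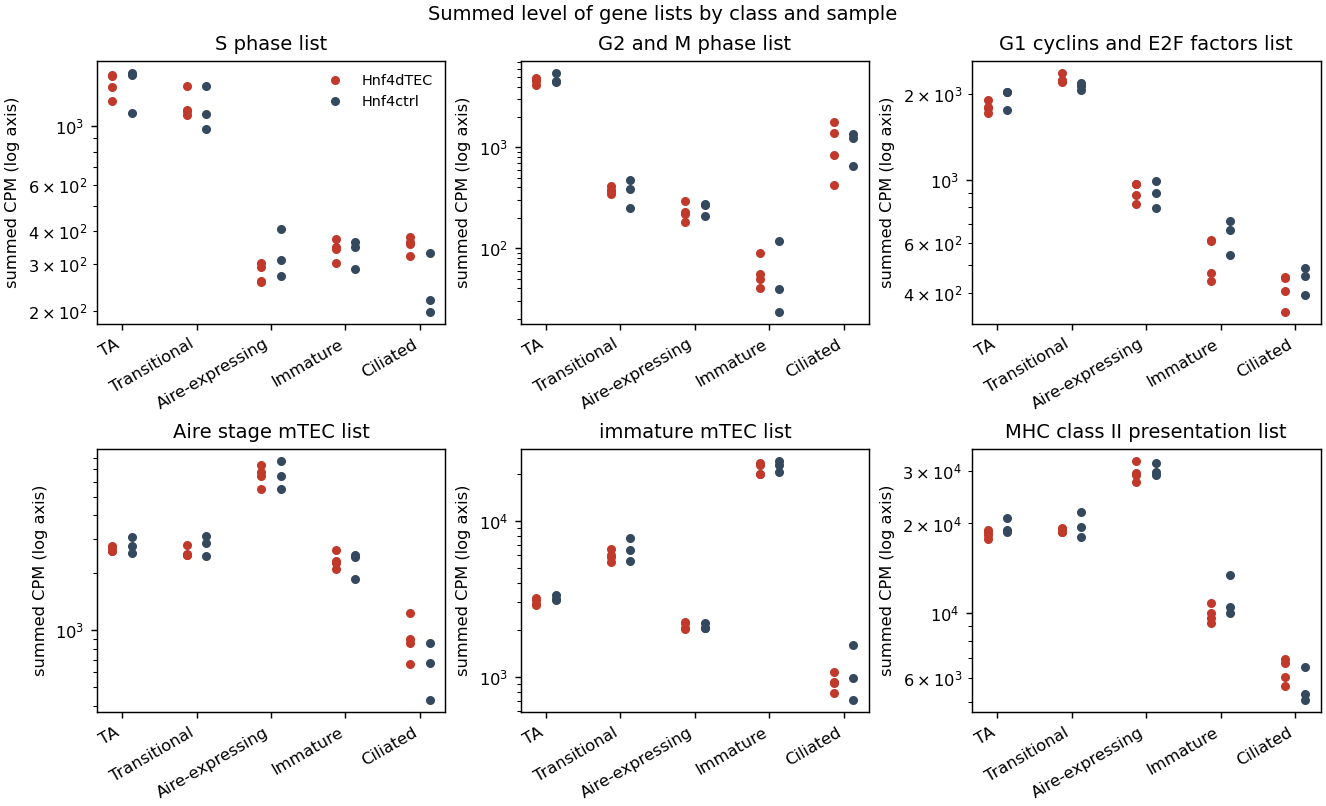
Summed CPM of 6 gene lists in TA cells and 4 other classes, each point a hash-tagged sample on a logarithmic vertical axis, Hnf4dTEC samples left of Hnf4ctrl samples within each class. TA cells hold the highest G2 and M phase sums (4105 to 5439 CPM), while their S phase sums overlap those of Transitional cells (1118 to 1592 against 979 to 1419 CPM).

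TA cells carried Aire stage transcripts at levels near those of Transitional cells and little Ccl21a. Aire itself averaged 439 ± 66.3 CPM in TA, 357 ± 49.6 CPM in Transitional, 764 ± 23.1 CPM in Aire-expressing and 12.99 ± 6.28 CPM in Immature cells (SD, n = 7), and 75.3% of thinned TA cells held an Aire transcript (93.9% unthinned) against 5.59% of thinned Tuft cells (12.7% unthinned). The TA and Transitional levels of Aire were closer to each other than either was to the other classes. Fezf2, another driver of tissue antigens, had 411 ± 41.8, 465 ± 54.8, 584 ± 43.9 and 149.9 ± 25.7 CPM in the same order. Ccl21a ran the other way, with 137 ± 73.9 CPM in TA, 1113 ± 403 CPM in Transitional, 172 ± 31.1 CPM in Aire-expressing and 11009 ± 886 CPM in Immature cells. Its counts can be split among near-identical gene copies, and 22.2% of thinned TA cells held a Ccl21a transcript, against 7.47% of thinned Tuft cells. Krt5, a basal keratin, had 129.6 ± 43.3 CPM in TA, 283 ± 85.3 CPM in Transitional and 1850.0 ± 324 CPM in Immature cells.

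Genes of antigen presentation were at the Transitional level and below that of Aire-expressing cells. The summed MHC class II list, led by the invariant chain gene Cd74, averaged 18937 ± 986 CPM in TA, 19325 ± 1237 CPM in Transitional and 29968 ± 1709 CPM in Aire-expressing cells, and 8 of 11 genes were lower in TA than in Aire-expressing cells in every sample. Of the Aire stage list, 12 of 15 were lower in every sample, including Cd52 (218 and 1309 CPM) and Csn2, the milk protein beta-casein displayed by the medulla (191 and 1098 CPM). How many of all genes were lower in this way is not given, so both counts describe their lists only. Receptors of the signals that induce Aire were close in both classes, with Tnfrsf11a (RANK) at 236 ± 22.8 CPM in TA and 262 ± 37.7 CPM in Aire-expressing cells and Cd40 at 105 ± 25.9 and 137 ± 22.6 CPM. Foxn1, the master factor of thymic epithelium, had 62.4 ± 9.43 CPM in TA and 77.8 ± 10.4 CPM in Aire-expressing cells. The sort markers Pdpn (podoplanin) and Itgb4 (CD104) had 10.3 and 68.8 CPM in TA cells, and Epcam had 918 CPM. Col1a1 of fibroblasts, Pecam1 of endothelium and Psmb11 of cortical epithelium had 1.53, 3.88 and 0.918 CPM in TA cells, and the fibroblast and endothelial lists summed to 22.6 ± 9.54 and 27.3 ± 9.22 CPM. The myeloid and B cell list summed to 141 ± 24.1 CPM in TA, 51.5 ± 22.7 CPM in Transitional and 719.8 ± 158 CPM in Aire-expressing cells. The cortical epithelium list summed to 355 ± 46.3 CPM in TA, 586 ± 168 CPM in Transitional, 1284 ± 398 CPM in Immature and 164 ± 6.92 CPM in Tuft cells.

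TA cells differed widely among themselves in where they stood in the cycle. Of the UMIs of the S phase and of the G2 and M phase lists in a cell, the S phase share ran from 0 to 87% with a median of 17.3%, and its 10th and 90th percentiles were 6.25 and 55.9%. It was a continuous range on a median of 137 list UMIs a cell. Ranked by this share and cut into 3 parts, 159 cells with a share of at least 24.8% leaned to S phase and 159 cells with at most 12.3% leaned to mitosis. Within 2 percentage points of these limits lay 30 and 64 cells, so these are ranges and not types. The parts held 99 Hnf4dTEC and 60 Hnf4ctrl cells on the S side and 99 and 60 on the mitosis side. Median depth was 26863 UMIs in S-leaning and 24410 UMIs in mitosis-leaning cells, and 6 and 2 of them were CD45-transcript cells.

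Epithelial and stage gene lists were lower, and the dissociation stress list higher, in S-leaning than in mitosis-leaning TA cells. The thymic epithelium list, with the keratins and claudins, summed to 2268 ± 246 CPM in S-leaning and 3306 ± 175 CPM in mitosis-leaning cells (SD, n = 7), and it was lower on the S side in 7 of 7 samples. The MHC class II list had 16881 ± 717 CPM in S-leaning and 19778 ± 1624 CPM in mitosis-leaning cells, and the Aire stage list had 2321 ± 185 CPM in S-leaning and 2810.1 ± 229.7 CPM in mitosis-leaning cells, both lower on the S side in 7 of 7 samples. Without the CD45-transcript cells the 3 sums were 2369.7 against 3316 CPM, 17733 against 19837 CPM and 2428 against 2817 CPM, and the S side was lower in 7, 6 and 7 of 7 samples. The middle part of the cells held 3142, 19899 and 2938 CPM of the 3 lists, so that the MHC class II and Aire stage sums were highest there. The dissociation stress list had 2031 ± 281 CPM in S-leaning and 1664 ± 177 CPM in mitosis-leaning cells, higher on the S side in 7 of 7 samples, and without the CD45-transcript cells 1906 against 1669 CPM, and its part in the other differences was not tested. Among single genes, Fezf2 had 324 ± 33.6 CPM in S-leaning and 475 ± 81.3 CPM in mitosis-leaning cells, while Aire had 387 ± 62.5 CPM in S-leaning and 456 ± 52.6 CPM in mitosis-leaning cells and was higher on the S side in 2 of 7 samples. Ccnd2 had 979 ± 272 CPM in S-leaning and 734 ± 198 CPM in mitosis-leaning cells, higher on the S side in 7 of 7 samples. The immature mTEC list showed no common direction, with 3228 ± 560.0 CPM in S-leaning and 3178 ± 347 CPM in mitosis-leaning cells. Cdk4, the partner of the D cyclins, and Trp53 were each higher on the S side in 6 of 7 samples, with 335 ± 73.1 CPM in S-leaning and 224 ± 43.3 CPM in mitosis-leaning cells for Cdk4 and 232 ± 31.4 CPM in S-leaning and 170.3 ± 22.8 CPM in mitosis-leaning cells for Trp53. Csn2 had 101 ± 57.1 CPM in S-leaning and 204 ± 77.7 CPM in mitosis-leaning cells, lower on the S side in 7 of 7 samples. Each sample counts alike in these means and sample counts, although the first control sample had only 19 TA cells over all parts, so its values rest on few cells. No test was made, since the parts were cut from the same cells and transcripts.

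**Figure D3:**
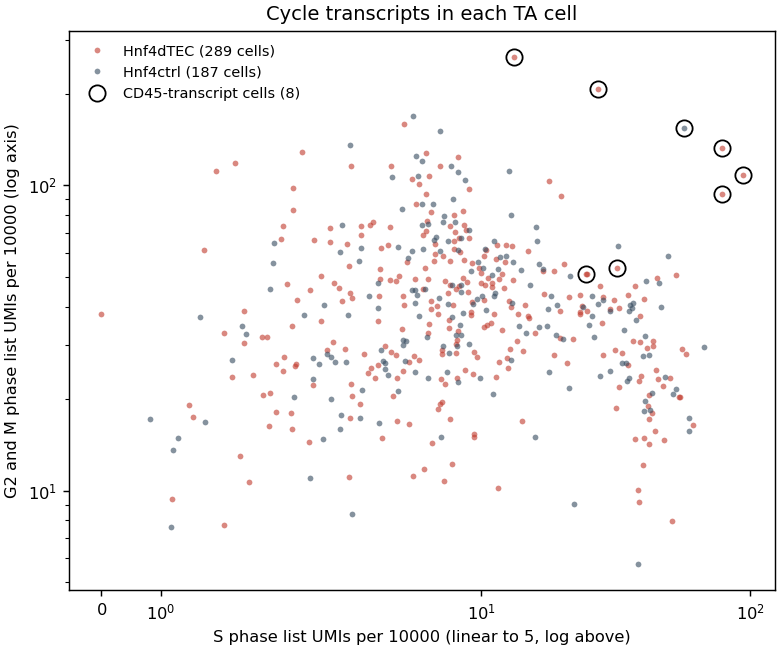
Each TA cell by its S phase list UMIs per 10000 (horizontal axis, linear up to 5 and logarithmic above) and its G2 and M phase list UMIs per 10000 (logarithmic vertical axis), coloured by genotype, with rings around the 8 cells with CD45 transcripts. The 289 Hnf4dTEC and 187 Hnf4ctrl cells spread over the same area, and most ringed cells lie at or beyond its upper right edge.

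The targeted genes could hardly be read in this class. Hnf4a was at 0 UMIs in 5 of 7 samples, with 1 UMI in Hnf4dTEC sample 3 and 1 UMI in Hnf4ctrl sample 2. Hnf4g had 7, 19, 23 and 23 UMIs in the Hnf4dTEC samples, against 1, 20 and 22 UMIs in the Hnf4ctrl samples, or 3.72, 13.1, 14.9 and 9.50 CPM in the Hnf4dTEC samples, against 2.27, 16.0 and 6.47 CPM in the Hnf4ctrl samples. The groups overlapped, at a log2 fold change of 0.22 (SE 0.50). In the other annotated cells Hnf4g had 95.7, 85.1, 91.8 and 86.7 CPM in the Hnf4dTEC samples, against 128, 128 and 132 CPM in the Hnf4ctrl samples. Reads of the 3′ end do not show whether the deleted part of a gene is missing, so these values do not check the genotype.

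Genotypes overlapped in their position in the cycle. The S phase share of the summed list UMIs was 21.0, 24.1, 23.8 and 27.6% in the Hnf4dTEC samples, against 17.1, 25.8 and 26.3% in the Hnf4ctrl samples, and the group means were 24.1 ± 2.71% (SD, n = 4) and 23.1 ± 5.20% (SD, n = 3). Without control sample 1 the difference in the share, Hnf4dTEC minus Hnf4ctrl, was -1.92 percentage points, in place of 1.08. The summed levels of all role lists of the cycle overlapped between genotypes as well. The G2 and M phase sums were 4696, 4904, 4512 and 4105 CPM in Hnf4dTEC, against 5439, 4573 and 4402 CPM in Hnf4ctrl samples. The licensing sums were 552, 705, 598 and 704 CPM in Hnf4dTEC, against 509, 640.5 and 678 CPM in Hnf4ctrl samples. The first control sample, with the fewest cells, was the highest of all in the G2 and M phase list and the lowest of all in the licensing list.

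Gene by gene, no transcript passed the test between genotypes in TA cells. edgeR's quasi-likelihood test with Benjamini-Hochberg adjustment called 0 of 10423 genes (0%) at an adjusted p under 0.05, while 201 genes (1.93%) were lower and 210 (2.01%) higher in Hnf4dTEC at an unadjusted p under 0.05. Without control sample 3 the count at an unadjusted p was 685, and DESeq2 gave 185, in place of 411. At an adjusted p under 0.05 limma voom called 0 and DESeq2 1, Ly6c2. Without a filter on low counts edgeR called 192, with a median of 98.5 UMIs over all samples and 82 of them among the genes tested with the filter. Of the 164 cell cycle genes tested, 3 were lower and 1 higher at an unadjusted p under 0.05 (2.44%, against 3.94% of all genes), and their median log2 fold change was -0.02, against 0.00 over all genes. The difference between the genotype effect in TA cells and that in the other cells, tested by edgeR with the sample as a block, passed for 0 of 17984 genes, with 375 lower (2.09%) and 416 higher (2.31%) at an unadjusted p under 0.05, 4.40% in all.

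The label markers overlapped between genotypes except for Mki67. Mki67 had 256, 266, 283 and 213 CPM in the Hnf4dTEC samples, against 350.0, 302 and 284 CPM in the Hnf4ctrl samples. The lowest control lay just above the highest mutant, the log2 fold change was -0.24 (SE 0.10), and edgeR's unadjusted p was 0.0354 with an adjusted p of 1.00. Across all genes tested, 3.3% were lower in every Hnf4dTEC sample than in any Hnf4ctrl sample and 2.42% higher, and of the cell cycle genes 7 were lower and 2 higher in this way. Top2a had 608, 634, 628 and 503 CPM in the Hnf4dTEC samples, against 777, 573 and 592 CPM in the Hnf4ctrl samples. Ube2c, at 469, 514, 355 and 396 CPM in the Hnf4dTEC samples, against 455, 406 and 428 CPM in the Hnf4ctrl samples, overlapped too, and so did Cdk1 and Birc5, with log2 fold changes of -0.12 (SE 0.10) and -0.10 (SE 0.09).

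**Figure D4:**
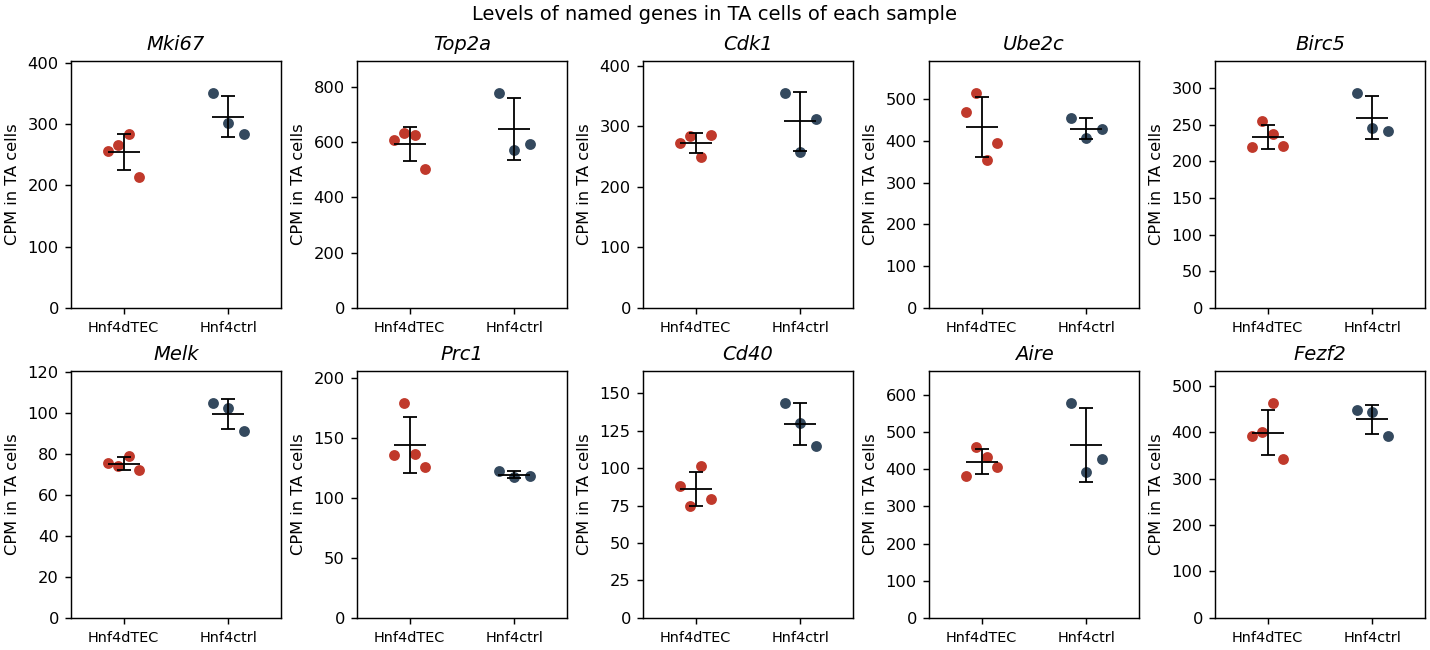
CPM in TA cells of the label markers and of Melk, Prc1, Cd40, Aire and Fezf2, each point a hash-tagged sample with Hnf4dTEC left of Hnf4ctrl. Horizontal bars are group means and whiskers 1 SD, and the Hnf4dTEC points of Melk and Cd40 all lie below the Hnf4ctrl points, with means of 75.1 against 99.3 CPM and 86.0 against 129 CPM.

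The other cycle genes with an unadjusted p under 0.05 were scattered over roles. Melk, a kinase of dividing cells, had 75.6, 74.0, 79.1 and 71.9 CPM in the Hnf4dTEC samples, against 105, 102 and 91.2 CPM in the Hnf4ctrl samples, without overlap, at a log2 fold change of -0.35 (SE 0.10) and an edgeR adjusted p of 1.00. Prim2, the large primase subunit, had 31.4, 33.2, 29.8 and 33.9 CPM in the Hnf4dTEC samples, against 47.7, 39.1 and 41.8 CPM in the Hnf4ctrl samples, also lower in each Hnf4dTEC sample. Prc1, which bundles the central spindle for cytokinesis, was on the other side, with 136, 179, 137 and 126 CPM in the Hnf4dTEC samples, against 123, 117 and 119 CPM in the Hnf4ctrl samples, where every mutant lay above every control. Among the brakes of the cycle, Btg2 had 27.1, 22.8, 40.9 and 44.2 CPM in the Hnf4dTEC samples, against 56.8, 43.9 and 57.1 CPM in the Hnf4ctrl samples, where a control lay below the highest mutant. None of the 4 passed the adjusted test, and their unadjusted p-values from edgeR were 0.00543, 0.0257, 0.0300 and 0.0165 in this order.

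Outside the cycle, the genes with the smallest unadjusted p and a mean of at least 20 CPM were, on the lower side, Serinc3, Gja4, Plppr1, Cd40 and Evi5. Cd40, the receptor through which T cells signal to the medulla, had 88.3, 74.7, 101 and 79.7 CPM in the Hnf4dTEC samples, against 143, 130.2 and 115 CPM in the Hnf4ctrl samples. The groups did not overlap, at a log2 fold change of -0.52 (SE 0.12), an edgeR unadjusted p of 0.000940 and an adjusted p of 0.794. Without a filter on low counts edgeR's adjusted p for Cd40 was 0.00561, and over all alternatives it ran from 0.00561 to 1.00. The difference between this effect and that in the other cells had a log2 size of -0.19 and an edgeR adjusted p of 1. Serinc3, a membrane protein gene, had 56.9, 62.9, 64.9 and 62.8 CPM in the Hnf4dTEC samples, against 139, 88.6 and 94.1 CPM in the Hnf4ctrl samples, and Gja4, a connexin gene, had 42.0, 56.7, 55.1 and 51.2 CPM in the Hnf4dTEC samples, against 81.8, 86.2 and 71.8 CPM in the Hnf4ctrl samples. Both were lower in each Hnf4dTEC sample. The TNF receptor and NF-kB list, to which Cd40 belongs, summed to 1959.7, 2043, 2034 and 2063 CPM in Hnf4dTEC, against 2443, 2171 and 2168 CPM in Hnf4ctrl samples. These sums did not overlap, while those of all other lists but the liver list did, and no test was made of them. In the TNF receptor and NF-kB list, 15 of 18 members had a negative log2 fold change with a median of -0.09, against 5133 of 10423 genes and 0.00 over all genes tested. This lean was not particular to the list. The chromosome structure and passenger complex list had 15 of 18 tested members negative (median -0.07) and the tuft list 10 of 11 (median -0.29). The cytokinesis list leaned the other way, with 3 of 10 negative (median 0.12). Only Cd40 in the TNF receptor and NF-kB list had an edgeR unadjusted p under 0.05.

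On the higher side stood H4c9, a replication-dependent histone H4 gene, with 96.8, 111, 104 and 86.7 CPM in the Hnf4dTEC samples, against 54.6, 69.5 and 68.8 CPM in the Hnf4ctrl samples, at a log2 fold change of 0.61 (SE 0.13). H4c9 shares its sequence in large part with other H4 genes, so its count is uncertain. Trpm3, an ion channel gene, had 50.5, 24.9, 28.5 and 29.7 CPM in the Hnf4dTEC samples, against 2.27, 7.19 and 14.7 CPM in the Hnf4ctrl samples, with every mutant above every control and an edgeR adjusted p of 0.703. The ribosomal protein genes Rps26 and Rps12 and the signalling regulator Rgs5 completed the 5, with log2 fold changes of 0.15 (SE 0.04), 0.18 (SE 0.05) and 0.32 (SE 0.08). Serinc3 and H4c9 had the same edgeR adjusted p of 0.703 as Trpm3, and those of the other 7 genes on both sides ran up to 0.883. Without the filter on low counts, 7 of the 10 genes passed edgeR's test, all but Rps26, Rps12 and Rgs5, with adjusted p-values from 8.73e-09 for Trpm3 to 0.0374 for Evi5. In no other alternative did any of the 10 pass.

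Stage and gut programs gave no call either. Aire had 381, 460.0, 432 and 407 CPM in the Hnf4dTEC samples, against 577, 392.1 and 426 CPM in the Hnf4ctrl samples, at a log2 fold change of -0.08 (SE 0.11), and the groups overlapped. Fezf2 and Foxn1 had log2 fold changes of -0.06 (SE 0.09) and -0.15 (SE 0.14). Of the gut epithelium list, 10 of 25 genes had enough counts. Of these, 1 was lower and 1 higher at an edgeR unadjusted p under 0.05 (20%, against 3.94% of all genes tested). The lower one was Krt20, a keratin of surface gut epithelium, with 7.45, 4.84, 5.84 and 2.06 CPM in the Hnf4dTEC samples, against 86.4, 11.2 and 8.82 CPM in the Hnf4ctrl samples. The groups did not overlap, and the highest value was that of the control sample with 19 TA cells. The higher one was Tff3, a trefoil peptide of goblet cells, with 23.9, 0.692, 17.5 and 40.1 CPM in the Hnf4dTEC samples, against 6.82, 4.79 and 6.18 CPM in the Hnf4ctrl samples, where the second mutant lay below all controls. Cdx1, a homeobox factor of the intestine, was the most abundant of the list, with 227, 269, 235 and 224 CPM in the Hnf4dTEC samples, against 282, 204 and 231 CPM in the Hnf4ctrl samples, and overlapped. Reg3g, an antibacterial lectin that averaged 1155 CPM in the other cells, had 44.9 ± 3.34 CPM in Hnf4dTEC (n = 4) and 43.8 ± 8.32 CPM in Hnf4ctrl TA cells (n = 3). Of the liver list 1 of 17 genes had enough counts, and the list's summed levels were 35.6, 22.8, 31.8 and 22.7 CPM in Hnf4dTEC, against 9.09, 21.6 and 19.7 CPM in Hnf4ctrl samples. These sums of rare transcripts did not overlap. Many lists were summed per sample, and all but this and the TNF receptor and NF-kB list overlapped between genotypes. Whether so few separated lists exceed chance was not tested.

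**Figure D5:**
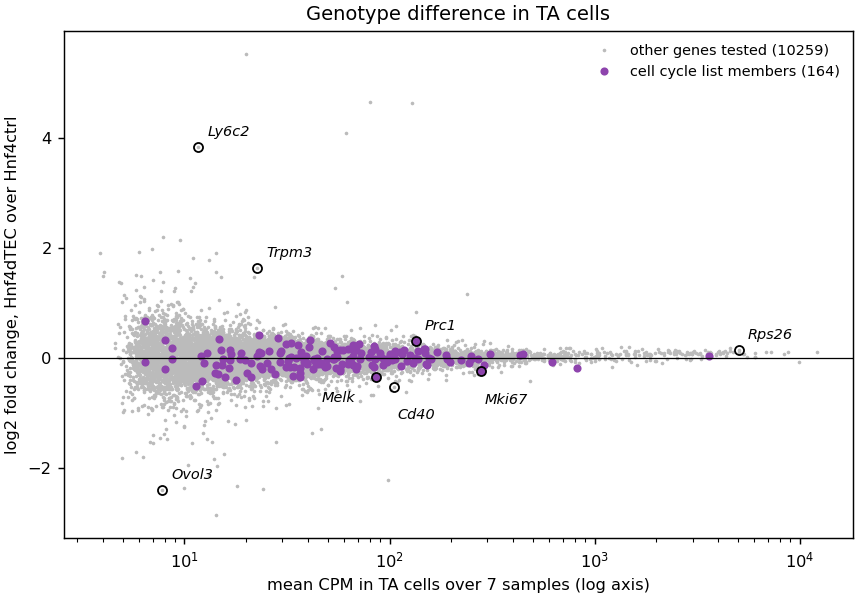
Log2 fold change of Hnf4dTEC over Hnf4ctrl in TA cells (vertical axis) against mean CPM over the 7 samples (logarithmic horizontal axis) for 10423 genes, with 164 cell cycle list members in purple and named genes ringed. The cell cycle genes lie between -0.51 and 0.67, while Ly6c2 and Ovol3 stand out at low levels. The unlabelled points above 4 are Oxt (5.53), Prtn3 (4.67), Chga (4.66) and Mpo (4.09). The CD45-transcript cells held 1243 of the 1270 Prtn3 UMIs and 779 of the 828 Mpo UMIs in TA cells.

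Ly6c2 was the gene called by DESeq2 and by edgeR with the replicate number as a block, and most of its transcripts were in the CD45-transcript cells. Ly6c2, a surface protein gene of monocytes and T cells, had 15, 12, 59 and 60 UMIs in the Hnf4dTEC samples, against 0, 1 and 6 UMIs in the Hnf4ctrl samples. The log2 fold change was 3.85 (SE 0.75), with an adjusted p of 0.703 by edgeR and of 0.00528 by DESeq2, within a range of 2.09e-13 to 1.00 over all alternatives, the lowest without a filter on low counts. Of its 153 UMIs, 93 came from the CD45-transcript cells, 48 and 45 of them from the 2 cells with granule enzyme transcripts in mutant samples 3 and 4. Without the 8 cells, 53 UMIs in Hnf4dTEC and 7 in Hnf4ctrl remained, at a log2 fold change of 2.45 (SE 0.48) and an edgeR adjusted p of 0.494. Elane, at 885 UMIs in Hnf4dTEC and 0 in Hnf4ctrl TA cells, had 1 and 0 without them. Of the 785 UMIs of the thymocyte list without Ptprc and Themis, 666 were in the 8 cells. The sum of the whole list ran from 17.6 to 174 CPM in Hnf4dTEC and from 9.58 to 382 CPM in Hnf4ctrl samples, whose highest value was the sample with 19 TA cells.

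Ovol3, an OVO family zinc finger gene, had the smallest unadjusted p in the class (edgeR p 5.98e-05, adjusted p 0.623) and was lower in the mutants. Its counts were 5, 4, 2 and 11 UMIs in the Hnf4dTEC samples, against 4, 15 and 75 UMIs in the Hnf4ctrl samples, or 2.66, 2.77, 1.30 and 4.54 CPM in the Hnf4dTEC samples, against 9.09, 11.98 and 22.1 CPM in the Hnf4ctrl samples. The lowest control lay above the highest mutant in CPM, and the counts are few. Ovol3 had an edgeR adjusted p of 0.0387 without the Scrublet-marked cells, and its adjusted p ran from 5.49e-06 to 0.986 over all alternatives, the lowest without a filter on low counts. Ly6c2 and Ovol3 were chosen after their values were seen.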

How the data were processed

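Hash-tagged thymic epithelial cells of 4 Hnf4dTEC and 3 Hnf4ctrl samples were analysed from the deposited matrix of UMI counts per gene and barcode and from the authors' table of classes, which names each cell's hash tag. The counts were deposited by the authors without normalization. The build was mm10, and Seurat 4.0.2 and Cell Ranger 6.1.0 are listed, per the submitters' processing notes, whereas the header of the matrix gives version 7.0.0 for Cell Ranger. The authors' filters on cells and genes are not given in the sources used here. A single encapsulation holds all samples, so no barcode is shared between libraries, and the strongest hash tag went against the named sample in 0 TA cells.

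Counts of TA cells were summed per sample, filtered with filterByExpr, scaled by TMM and tested with edgeR 4.0.16 (glmQLFit, glmQLFTest, Benjamini-Hochberg over all genes tested, threshold 0.05, two-sided) in R 4.3.3. limma 3.58.1 and DESeq2 1.42.0 were alternatives, and log2 ratios of TA over the rest used CPM plus a pseudocount of 1. Doublets were marked with Scrublet in scanpy 1.11.5 on the 15801 barcodes with at least 500 genes, which marked 1.83% of annotated cells, and they were kept. On simulated counts the genotype test recovered 100% of 200 genes changed by log2 2 among 10172, with 10 false calls, and the test of the difference recovered 98.5% among 10423, with 11. The changed genes were drawn from those with a mean of at least 20 CPM, and the simulated spread depended on the level of a gene alone. Smaller changes, changes in rarer genes and genes of wider spread were not simulated, so these shares do not say how many such changes the tests would miss. Intervals on shares are exact binomial (Clopper-Pearson).

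The class, the gene lists and the tests were chosen with earlier results of these data known. Named genes were the label markers, the targeted genes and Foxn1, the 5 lower and 5 higher genotype genes with the smallest unadjusted p at a mean of 20 CPM or more, the 20 highest and 10 lowest genes of TA over the rest, the 4 most abundant members of each list with any member under an unadjusted p of 0.05, and fixed markers. Oxt, Chga, Mpo, Elane, Prtn3, Cdc6, Mcm2, Mcm6 and other list members outside that rule are named as examples chosen after their values were seen. No p-value is given for summed lists, although permutation tests of them had been planned, since the members were chosen with results known.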

Additional observations from a re-analysis of the deposited data

Results flagged for a closer look

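Fabp6, an ileal bile acid binding protein gene, had a lone high mutant sample. Its level in TA cells was 2.13, 4.84, 51.2 and 1.24 CPM in the Hnf4dTEC samples, against 72.7, 24.8 and 38.8 CPM in the Hnf4ctrl samples, and the third mutant, at 51.2 CPM, lay apart from the other 3 by Dixon's criterion for 4 samples (0.829). With all samples Fabp6 differed by -1.53 on the log2 scale (SE 0.79), at an adjusted p of 1.00 by edgeR, and without that sample it was -3.97 with an adjusted p of 0.0168, in a range of 1.24e-08 to 1.00 over all alternatives. Fabp6 was named after its values were seen.

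Hnf4a met the same criterion through 1 UMI, which gives 0.649 CPM in the third mutant and 0 in the other 3. The summed thymic epithelium list met it in the first mutant, at 2965 CPM against 2797 to 2824 CPM in the other mutants and 2669 to 3242 CPM in the controls. Chance alone meets the criterion in about 1 of 20 groups, and 60 values were checked.

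Barcodes without an authors' class also held the label markers. Of 8904 such barcodes, 251 (2.82%) had transcripts of all 5, next to 334 of 9185 annotated cells. Their median was 37231 UMIs, and Scrublet marked 73 of them. They entered no other value, and why they carry no class was not tested.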

How the results depend on the processing

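Genes called between genotypes in TA cells numbered 1 by DESeq2 (Ly6c2), 192 without a filter (115 lower and 77 higher, 39 of them at 0 UMIs in 1 genotype), 1 without Scrublet cells (Ovol3) and 0 to 1 with a replicate left out (Fabp6 without the third mutant). Other alternatives, among them limma voom, a minimum of 20 CPM and leaving out the CD45-transcript cells, called 0 like the fit reported. The difference between TA and the other cells gave 0 calls in all 11 alternatives. The replicate block, which drops the fourth mutant, called 1 (Ly6c2) and turned Top2a to a log2 fold change of 0.00101. Same-numbered deviations from the group means correlated at -0.118, -0.086 and -0.03, within the range of differently numbered samples, -0.151 to 0.158. So few values cannot decide whether the replicate numbers pair the samples. The block changed no other call of a named gene. With a replicate left out, the log2 fold change ran from -0.17 to 0.0594 for Top2a, -0.0404 to 0.13 for Ube2c, -0.12 to 0.86 for Hnf4g and -0.40 to 0.36 for the TA share, and the difference in median UMIs per cell, Hnf4dTEC minus Hnf4ctrl, from -1510.2 to 987. That difference was -609 with means, and the TA share had a log2 fold change of 0.0406 without Tuft cells. A pseudocount of 10 CPM left 711 genes at least 2-fold higher in TA cells, against 1120. The cause was not tested for any of these. All 90 alternatives for the cycle lists stayed within 1 SD, yet with a replicate left out the difference in the S phase share ran from -1.92 to 2.70 percentage points, and the log2 ratio, Hnf4dTEC over Hnf4ctrl, from -0.0435 to 0.15 for licensing and -0.13 to 0.11 for S phase genes, so these directions are not stable. Of the log2 ratios of all 10 lists, only those of the G1 and mitotic entry lists kept 1 sign with a replicate left out. Of the alternatives for named genes, 316 of 337 kept their direction and side of the threshold, while 7 turned direction and 14 came past the threshold.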

Other observations

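Of the other classes, Ciliated cells had the highest summed G2 and M phase list, with 4662 ± 423 CPM in TA and 1096 ± 473 CPM in Ciliated cells (SD, n = 7). Top2a had 616 ± 83.6 CPM in TA and 182 ± 80.0 CPM in Ciliated cells. A pair of centrosome kinase genes lay lower in TA cells, as Plk4, which starts centriole duplication, had 39.3 CPM in TA and 129.6 CPM in Ciliated cells, and Nek2, which parts the centrosomes, had 26.4 CPM in TA and 102 CPM in Ciliated cells. Other division genes were far higher in TA cells, with Mki67 at 279 CPM in TA and 11.5 CPM in Ciliated cells, Nusap1 at 309.5 CPM in TA and 13.6 CPM in Ciliated cells and Ccna2 at 117 CPM in TA and 1.76 CPM in Ciliated cells. The multiciliogenesis genes Ccno, Mcidas and Foxj1 had 169.6, 118 and 553 CPM in Ciliated cells. Of the 26 annotated cells outside TA with all 5 label markers, 17 were Ciliated and 5 Transitional. These genes were picked after their values were seen, and no difference was tested.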
